A study of Mus musculus with 6 samples.

Results

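The Notch genes described here are 10 genes given by name: the receptors Notch1, Notch2, Notch3 and Notch4, the ligands Jag1, Jag2 and Dll1, and the transcriptional targets Hes1, Hey1 and Heyl. All 10 were found by symbol among the 53801 gene identifiers of the count files, and all 10 had enough counts to be tested. They were measured by RNA sequencing in ciCPCs, chemically induced cardiovascular progenitor cells of the mouse. Such cells are made by reprogramming fibroblasts, and here picked colonies were expanded by passaging. Their genotype was wild type and their strain a mix of C57BL/6 with 129J/SvE. At both passages the medium held BMP4, Activin A, the Wnt-activating compound CHIR99021 and the FGF receptor inhibitor SU5402. The groups were passage 3 (early, 3 libraries) and passage 20 (late, 3 libraries), so the comparison asks how these genes differ after long expansion.

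Notch receptors are single-pass membrane proteins that are switched on by ligands of the Jagged and Delta families on neighbouring cells. Ligand binding exposes the receptor to ADAM proteases and then to gamma-secretase, which frees the intracellular domain. That fragment enters the nucleus, joins the DNA-binding protein RBPJ and a Mastermind coactivator, and switches on genes of the Hes and Hey families, which encode basic helix-loop-helix repressors. In the developing heart the pathway is known for its part in the cushions and valves, in trabeculation and in the vessel wall, where Notch3 is typical of mural cells and Notch4 of endothelium.

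Libraries held 11387738 to 17721788 counts in genes. Levels are given as CPM, the usual count measure scaled to a common library total, with TMM factors and mean ± SD over n = 3 libraries per passage. A gene was called where its adjusted p was under 0.05 in edgeR's quasi-likelihood test (Benjamini-Hochberg, over 15143 genes). The labels do not state that replicates came from separate cultures, so the p-values measure the spread between these libraries, which may be technical. Passage cannot be told apart from a difference in culture, harvest or library preparation. In such bulk RNA, fewer cells of a type and less RNA per cell cannot be told apart either. Passage 20 replicate 3 stood apart from its group: its median absolute log2 difference was 0.198 from replicate 1 and 0.181 from replicate 2, against 0.107 between those 2 and 0.081 to 0.0944 between passage 3 libraries. Results that rest on it are given with and without it.

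Of the 10 genes, 5 were higher at passage 20 (Notch1, Notch3, Jag2, Dll1 and Hey1), 4 were lower (Notch2, Notch4, Jag1 and Heyl) and Hes1 was not called. Over all genes, 74.3% were called, 37.0% higher and 37.3% lower, so the share of called Notch genes was near the background. These were 5604 higher and 5641 lower genes, against 3528 higher and 8273 lower with library sizes as the only scaling. Called changes of at least 2-fold were found for 4 of the 10 (Jag2, Dll1, Hey1 and Heyl) against 27.6% of all genes. Of these, Dll1 and Heyl passed the low-count filter for testing through the passage where they were higher. The passages did not overlap in 9 of the 10, against 77.5% of all genes. The median log2 fold change of the 10 was 0.12 and that of all genes was -0.01. The median size of the change, whatever its direction, was 0.84 for the 10 and 0.56 for all genes.

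**Figure D1:**
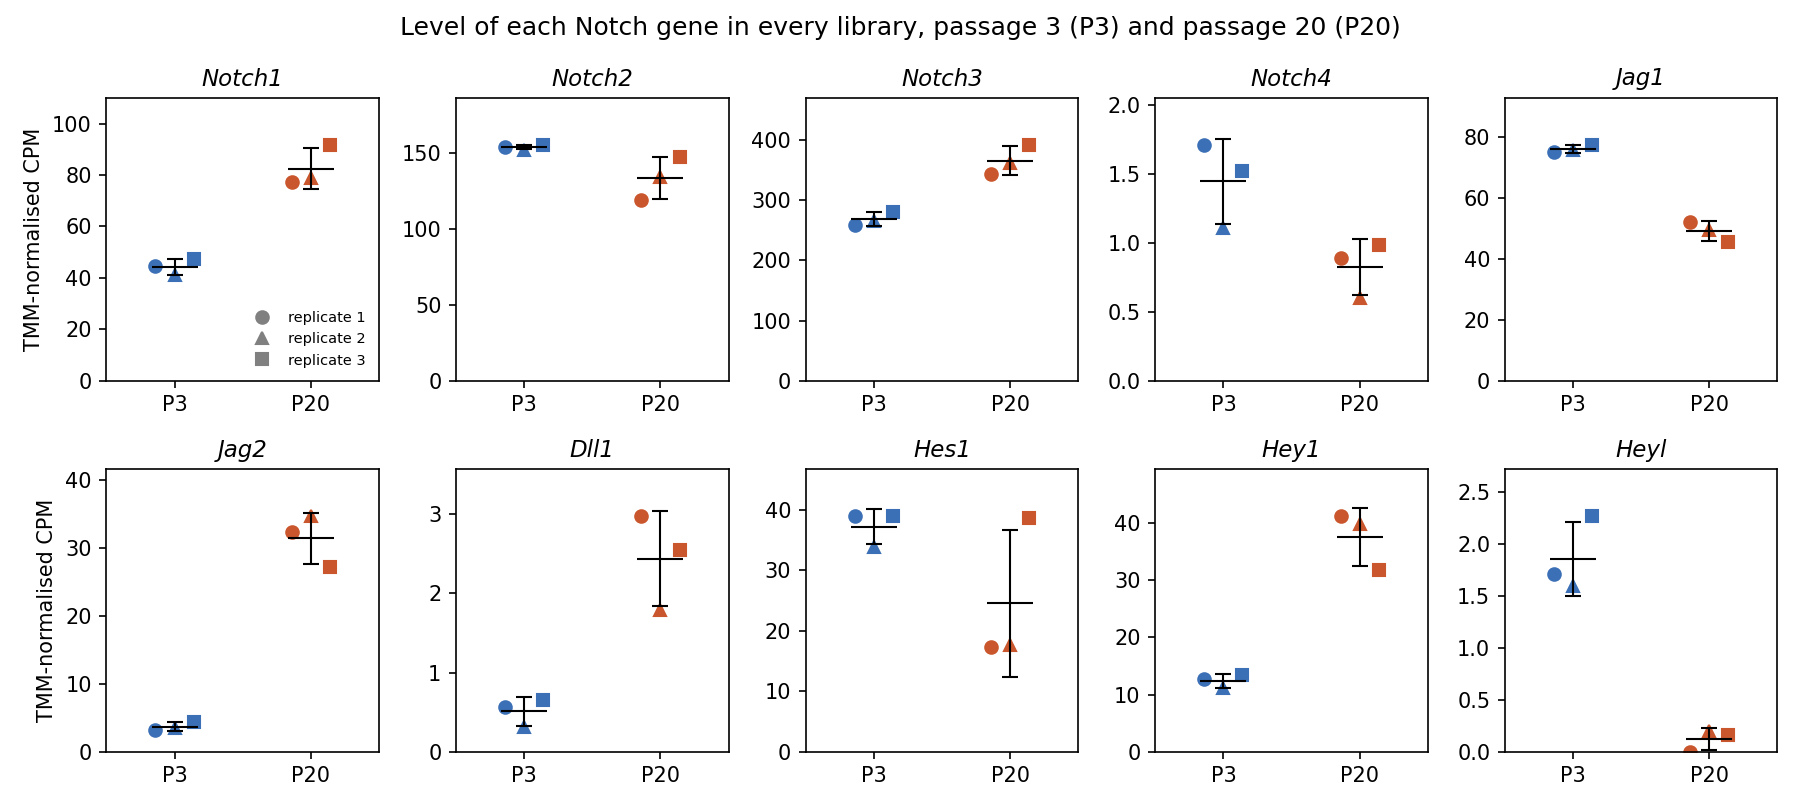
Level of each gene (y axis, TMM-normalised CPM from 0) in the 3 libraries of passage 3 (blue) and passage 20 (orange), with black bars for mean and SD and symbols for the replicate. Hes1 is the gene in which the groups overlap, through passage 20 replicate 3 at 38.6 CPM, and the other 9 separate.

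Promoter sequence is shown for the 2 most abundant receptors, for Jag1 as the leading ligand, and for Rbpj, the DNA-binding partner of the receptors, which holds a motif match. RefSeq windows on GRCm38.p6 were matched by symbol for 7 of the 10 members, in 8 windows, and for Rbpj in 2 windows. Hes1, Hey1 and Heyl were not matched. Each stretch is read 5′ to 3′ on the gene's strand, begins 250 bases before the RefSeq start and stops before the first annotated exon base. Capitals mark TGGGAA, the core motif of RBPJ, on either strand.
Notch2 (chr3:98013288-98013526, plus strand): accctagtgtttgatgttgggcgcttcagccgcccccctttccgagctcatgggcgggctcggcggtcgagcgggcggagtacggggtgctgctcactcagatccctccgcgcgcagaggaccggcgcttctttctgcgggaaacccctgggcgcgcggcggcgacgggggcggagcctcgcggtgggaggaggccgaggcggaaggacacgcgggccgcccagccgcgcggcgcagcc
Notch3 (chr17:32166891-32167140, minus strand): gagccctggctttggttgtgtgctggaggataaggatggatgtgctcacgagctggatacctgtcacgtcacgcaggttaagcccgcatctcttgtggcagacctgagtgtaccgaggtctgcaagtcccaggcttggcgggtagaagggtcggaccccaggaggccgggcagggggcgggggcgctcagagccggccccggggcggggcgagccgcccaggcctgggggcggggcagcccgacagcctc
Jag1 (chr2:137116645-137116770, minus strand): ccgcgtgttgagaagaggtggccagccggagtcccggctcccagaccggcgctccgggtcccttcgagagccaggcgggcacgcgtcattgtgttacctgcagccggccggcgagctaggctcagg
Rbpj (chr5:53590096-53590213, plus strand): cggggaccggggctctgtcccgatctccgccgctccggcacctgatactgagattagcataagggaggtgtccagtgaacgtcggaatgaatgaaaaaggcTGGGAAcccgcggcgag

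TGGGAA was found in 0 of the 8 windows of 250 upstream bases of the members. It was found in 21.6% of 32851 windows of 250 bases before all RefSeq starts in the table. The first Rbpj window held 2 matches, at -149 to -144 on the gene's strand, shown above, and at -65 to -60 on the other strand. CACGTG, an E-box bound by Hes and Hey proteins, was in 0 of the members' windows and 6.02% of all. A match is a description of letters in these windows and no evidence of binding, and sites elsewhere were not searched. The windows were rich in G and C, from 56.0% in the second Dll1 window to 87.2% in that of Jag2.

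Notch3 was the most abundant receptor at both passages. Notch3 (ENSMUSG00000038146, GRCm38 chromosome 17, 32120820 to 32166852, minus strand, longest transcript with 33 exons) stood at 259, 266 and 281 CPM at passage 3 and at 344, 363 and 392 CPM at passage 20. Every late library was above every early one. The means were 269 ± 11.5 and 366 ± 24.3 CPM, a rise of 1.36-fold (log2 0.45, SE 0.06, adjusted p = 3.78e-05 by edgeR). With library sizes as the only scaling, its log2 change was 0.12 and was not called (adjusted p = 0.112 by edgeR).

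Notch1 rose more in proportion than Notch3, from a lower level. Notch1 (ENSMUSG00000026923, chromosome 2, 26457903 to 26516663, minus strand) stood at 44.5, 41.1 and 47.4 CPM at passage 3 and at 77.2, 78.7 and 91.6 CPM at passage 20. The 3 late libraries lay clear above the early ones. The change was 1.86-fold (log2 0.90, SE 0.08, adjusted p = 2.25e-06 by edgeR). Notch1 is the receptor most studied in the endocardium.

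Notch2 was lower at passage 20, by a small amount. Notch2 (ENSMUSG00000027878, chromosome 3, 98013527 to 98150361, plus strand) stood at 154, 152 and 155 CPM at passage 3. At passage 20 it was at 119, 134 and 147 CPM, so the late libraries were lower and more spread. It fell 1.15-fold (log2 -0.20, SE 0.07, adjusted p = 0.0233 by edgeR). The call was lost in 5 of the 6 fits that each left out 1 library (adjusted p up to 0.0912), where the log2 change ran from -0.29 to -0.13. Without passage 20 replicate 3 it held.

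Notch4, the receptor typical of endothelium, was near the lower limit of detection. Notch4 (ENSMUSG00000015468, chromosome 17, 34564268 to 34588503, plus strand) had 27, 18 and 30 counts at passage 3 and 9, 6 and 12 at passage 20. In CPM these were 1.71, 1.11 and 1.52 against 0.891, 0.597 and 0.987, and the groups did not overlap. Pooled counts were 1.73-fold lower at passage 20, with a 95% counting interval from 1.10 to 2.80 (exact, counting error only). Notch4 passed the low-count filter through passage 3, where it was higher, so a rise could hardly have been called. The log2 change was -0.79 (SE 0.31, adjusted p = 0.0362 by edgeR). It was not called by DESeq2 (adjusted p = 0.175), nor by edgeR with no low-count filter (adjusted p = 0.0511), nor in 4 of the 6 fits without 1 library: those without passage 3 replicate 1 or 3 and without passage 20 replicate 1 or 2 (adjusted p 0.0676 to 0.132 by edgeR).

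Levels of different genes were compared as CPM per kilobase of annotated exon. By this measure the 4 receptors summed to between 49.6 and 52.7 at passage 3 and to 59.1, 63.0 and 68.7 at passage 20. These sums depend on the TMM scaling. With library sizes only, the log2 changes were 0.12 for Notch3, -0.53 for Notch2 and 0.57 for Notch1. Notch3 held 65.4 ± 0.827% of the sum at passage 3 and 71.3 ± 0.683% at passage 20. The share of Notch2 went from 28.1 ± 0.745% to 19.5 ± 0.656% and that of Notch1 from 6.13 ± 0.309% to 9.11 ± 0.299%. Notch4 held 0.353 ± 0.0764% and 0.161 ± 0.0377%. The order Notch3, Notch2, Notch1, Notch4 was the same at both passages.

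Jag2 had the largest rise of the 10 genes, from a low starting level. Jag2 (ENSMUSG00000002799, chromosome 12, 112907819 to 112929776, minus strand) stood at 3.17, 3.51 and 4.40 CPM at passage 3 and at 32.3, 34.6 and 27.2 CPM at passage 20. Each late library was several-fold above each early one. The change was 8.37-fold (log2 3.07, SE 0.14, adjusted p = 9.48e-09 by edgeR). In size it exceeded the change of 97.1% of all genes tested.

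Jag1, a ligand known for its part in the outflow tract and vessel wall, moved the other way. Jag1 (ENSMUSG00000027276, chromosome 2, 137081456 to 137116644, minus strand) stood at 75.0, 75.8 and 77.3 CPM at passage 3 and at 52.1, 49.6 and 45.5 CPM at passage 20. The early libraries were nearly level and all above the late ones. It fell 1.55-fold (log2 -0.63, SE 0.07, adjusted p = 6.05e-06 by edgeR).

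Dll1, a Delta ligand of the presomitic mesoderm and of neural progenitors, rose but stayed low. Dll1 (ENSMUSG00000014773, chromosome 17, 15367354 to 15376872, minus strand) had 9, 5 and 13 counts at passage 3 and 30, 18 and 31 at passage 20. These correspond to 0.570, 0.308 and 0.657 CPM against 2.97, 1.79 and 2.55 CPM, without overlap. The log2 change was 2.21 (SE 0.32, 4.63-fold, adjusted p = 8.47e-05 by edgeR), and pooled counts were 4.70-fold higher with a 95% counting interval from 3.00 to 7.56. Dll1 passed the low-count filter through passage 20, where it was higher, so a fall could hardly have been called. With no low-count filter its log2 change was 2.18.

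With TMM scaling, the summed level of these 3 ligands was similar at both passages while its make-up differed. Per kilobase they summed to 13.5, 13.6 and 14.1 CPM at passage 3 and to 14.3, 13.9 and 12.3 CPM at passage 20, and the 2 ranges overlapped. The TMM factors were 1.12 to 1.13 at passage 3 and 0.873 to 0.917 at passage 20, so this similarity depends on the scaling. With library sizes only, the log2 changes were -0.97 for Jag1, 2.73 for Jag2 and 1.89 for Dll1. Jag1 held 95.3 ± 0.745% of the sum at passage 3 and 62.4 ± 1.10% at passage 20. Jag2 held 3.86 ± 0.571% and then 33.3 ± 2.14%, and Dll1 0.883 ± 0.304% and then 4.29 ± 1.08%. In every late library Jag1 was still the leading ligand of the 3.

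**Figure D2:**
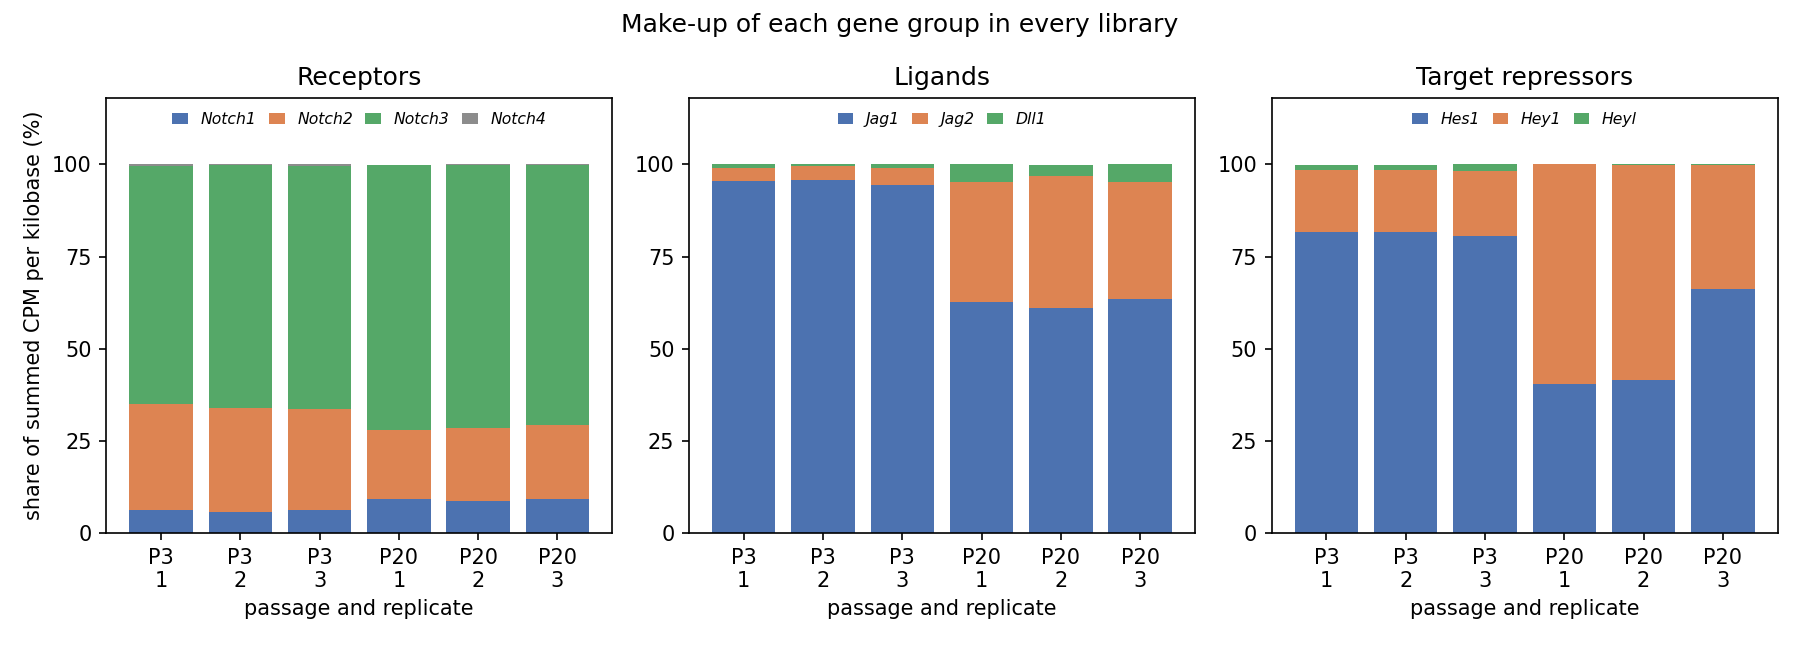
Share (y axis, percent of the summed CPM per kilobase) of each receptor, ligand and target in each of the 6 libraries. Jag2 goes from 3.86% to 33.3% of the ligand sum on average, and the target panel shows passage 20 replicate 3 with 66.1% Hes1 beside 40.5% and 41.6% in replicates 1 and 2.

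Hey1, a repressor of the Hairy family with roles in the endocardium and large arteries, rose. Hey1 (ENSMUSG00000040289, chromosome 3, 8663359 to 8667256, minus strand) stood at 12.7, 11.1 and 13.4 CPM at passage 3 and at 41.1, 39.8 and 31.7 CPM at passage 20. Its lowest late library, replicate 3, was still above all early ones. The change was 3.00-fold (log2 1.58, SE 0.12, adjusted p = 3.49e-07 by edgeR).

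Heyl, a relative of Hey1 that is typical of vascular smooth muscle, was almost absent at passage 20. Heyl (ENSMUSG00000032744, chromosome 4, 123233556 to 123249875, plus strand) had 27, 26 and 45 counts at passage 3 and 0, 2 and 2 at passage 20. The CPM values were 1.71, 1.60 and 2.27 against 0, 0.199 and 0.164. Pooled counts were 15.3-fold lower at passage 20, with a 95% counting interval from 5.77 to 57.1. The fitted log2 change was -3.83 (SE 0.50, adjusted p = 3.48e-05 by edgeR), larger in size than that of 98.6% of genes tested. Heyl passed the low-count filter through passage 3, where it was higher, so a rise could hardly have been called. With no low-count filter its log2 change was -3.86. Leaving out passage 20 replicate 1, which had no count, gave -3.33. On the log2 scale of the authors' deposited values, which lifts low counts, the difference was -1.54.

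Hes1, which also answers to signals other than Notch, was split within passage 20. Hes1 (ENSMUSG00000022528, chromosome 16, 30064384 to 30067796, plus strand) stood at 38.9, 33.8 and 38.9 CPM at passage 3. At passage 20 it was at 17.4 and 17.7 CPM in replicates 1 and 2 and at 38.6 CPM in replicate 3. That library lay within the passage 3 range, so the groups overlapped, and the log2 change of -0.58 (SE 0.31) was not called (adjusted p = 0.138 by edgeR). Without passage 20 replicate 3 the log2 change was -1.10 and was called (adjusted p = 6.89e-14 by edgeR). In the fits that left out 1 of the other 5 libraries it was between -0.66 and -0.38 and was not called. It was called with library sizes only, at -0.90 (adjusted p = 0.0428 by edgeR).

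Within the late group the same library had the highest Hes1 and the lowest Hey1 and Jag2. The 3 target genes summed to 23.3, 20.3 and 23.6 CPM per kilobase at passage 3 and to 21.1, 20.9 and 28.7 at passage 20, with replicate 3 as the highest. Hes1 held 81.4 ± 0.610% of the sum at passage 3 and 49.4 ± 14.5% at passage 20. It held 41.0% at passage 20 without replicate 3. Hey1 held 17.0 ± 0.377% and then 50.5 ± 14.5%, and Heyl 1.62 ± 0.233% and then 0.0994 ± 0.0937%.

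Per kilobase, the order of the 10 genes at passage 3 was Notch3, Hes1, Notch2, Jag1, Hey1, Notch1, Jag2, Heyl, Notch4 and Dll1. It ran from 33.2 ± 1.43 CPM per kilobase for Notch3 to 0.121 ± 0.0431 for Dll1. The ranges of neighbours overlapped for Notch4 and Dll1 only. At passage 20 the order was Notch3, Notch2, Hes1, Hey1, Jag1, Notch1, Jag2, Dll1, Notch4 and Heyl, from 45.3 ± 3.00 to 0.0237 ± 0.0208 CPM per kilobase. There Notch2 at 12.4 ± 1.30, Hes1 at 12.1 ± 5.95 and Hey1 at 11.5 ± 1.56 could not be ranked, since each overlapped its neighbour. Hes1, with a range from 8.55 to 18.9, also overlapped Jag1, with a range from 7.82 to 8.94, so these could not be ranked either.

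**Figure D3:**
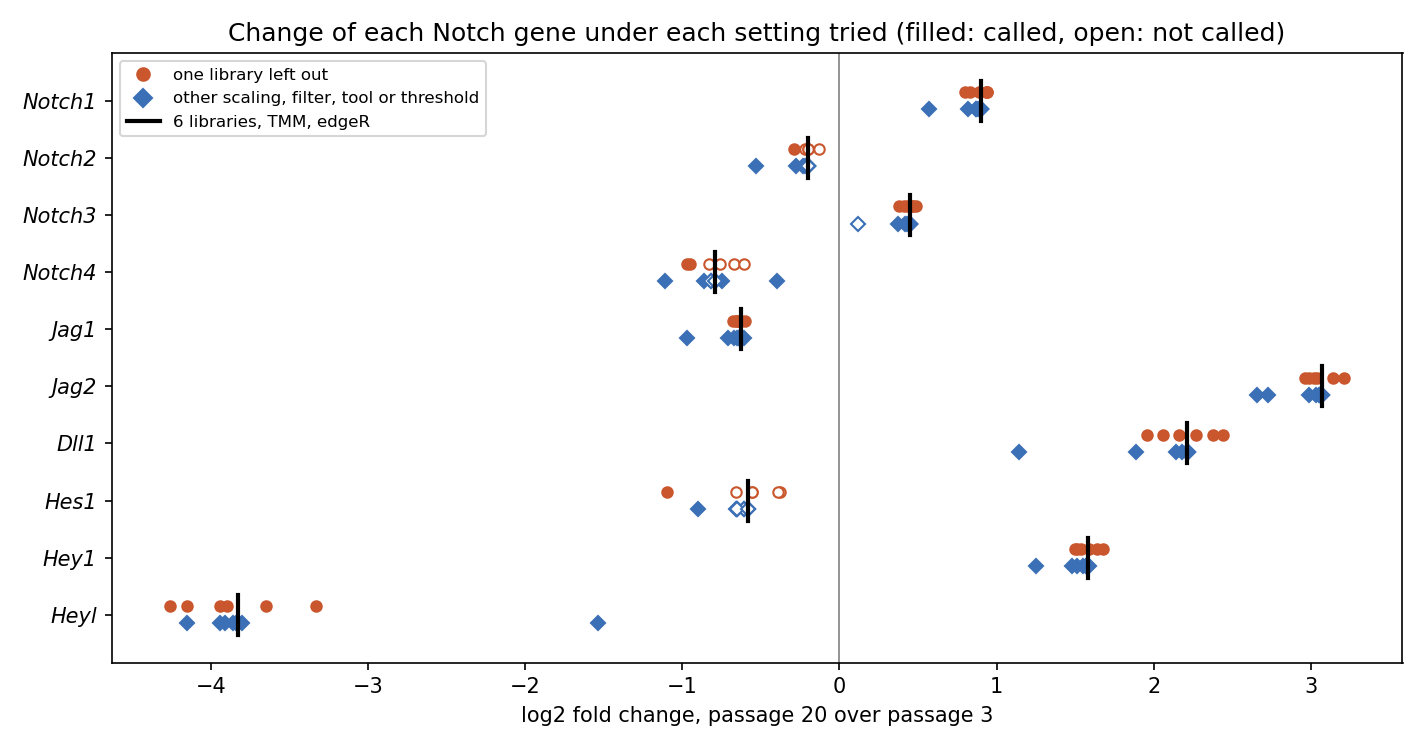
Log2 fold change (x axis, passage 20 over passage 3) of each gene with all libraries (black bar), with 1 library left out (circles) and under another scaling, filter, tool or threshold (diamonds), filled where called. The 10 genes keep their side of 0 in all 16 alternatives, while calls of Notch2, Notch4 and Hes1 depend on the libraries included. The stricter threshold reuses the main fit, so there the side could not differ.

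The remaining genes of the pathway were taken from a list of 64 by role, of which 59 were tested. In it 22 rose, 16 fell and 21 were not called, with a median log2 change of 0.02 (all genes -0.01, 74.3% called). Over all genes 37.0% were called higher and 37.3% lower, the shares to set beside each count by role or marker list below. With library sizes only, 14 rose and 35 fell, so small changes depend on the scaling, which moved the median of all genes from -0.01 to -0.34.

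Among nuclear components, Rbpj, the DNA-binding protein through which all 4 receptors act, rose most. Rbpj (ENSMUSG00000039191, chromosome 5, 53466152 to 53657362) stood at 103, 109 and 110 CPM at passage 3 and at 349, 329 and 317 CPM at passage 20, without overlap. The change was 3.09-fold (log2 1.63, SE 0.06, adjusted p = 1.17e-09 by edgeR), and 1.30 on the log2 scale with library sizes only. Rbpj has processed pseudogenes that can share reads, so its count is uncertain to that extent. Of 9 genes of this role, 3 rose, 2 fell and 4 were not called. Maml3, a Mastermind coactivator, rose 1.48-fold, while the histone acetyltransferase genes Ep300 and Kat2b fell 1.49-fold and 1.34-fold. Of 12 corepressor genes 3 rose, 5 fell and 4 were not called. Spen, which binds RBPJ in the absence of Notch, fell 1.71-fold and Tle4 1.32-fold. Bend6 rose 1.86-fold and Tle1 1.16-fold, the latter turning to a log2 change of -0.11 with library sizes only. The call of Tle1 was also lost without passage 3 replicate 1 or 2, without passage 20 replicate 1, with upper-quartile factors and by DESeq2.

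Enzymes that modify and cut the receptor moved in different directions. Of 6 genes of sugar transferases acting on Notch 5 were tested, and 4 fell, 0 rose and 1 was not called by edgeR (all genes 37.3% lower). By DESeq2 and at an unadjusted p under 0.05, 0 rose as well. Poglut1, which adds glucose to the receptor, fell from 66.5 ± 2.12 to 43.4 ± 2.89 CPM (1.53-fold), and Eogt fell 1.37-fold. The fringe gene Lfng, at 2.20 ± 0.249 and 1.64 ± 0.153 CPM, was the one not called. Of 9 protease genes 4 rose, 1 fell and 4 were not called. Furin, the convertase that cleaves the receptor during export, fell from 326 ± 3.35 to 153 ± 21.7 CPM (2.13-fold). Adam17 rose 1.51-fold and the gamma-secretase subunit gene Psenen 1.47-fold, while Adam10 stood at 180 ± 6.38 and 181 ± 10.3 CPM. Adam17 shares exon sequence with Iah1 on the opposite strand, and whether counting used strand is not stated in the labels.

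Of 16 genes of ubiquitin ligases and adaptors, 6 rose, 4 fell and 6 were not called. Neurl1a, a Neuralized ligase that acts on ligands, rose from 19.4 ± 1.48 to 49.8 ± 2.21 CPM (2.56-fold), and Dtx3 rose 1.77-fold. Fbxw7, which marks the free intracellular domain for breakdown, fell from 30.8 ± 1.21 to 14.4 ± 1.96 CPM (2.12-fold). Numb, an adaptor that opposes Notch, fell 1.26-fold. Mib1, the main ligase of ligand uptake, stood between 179 and 185 CPM at passage 3 and between 168 and 189 CPM at passage 20 and was not called.

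Of 5 further ligand genes 4 were tested, and 3 rose, 0 fell and 1 was not called by edgeR. The same count of 0 was found by DESeq2 and at an unadjusted p under 0.05. Dlk1, an imprinted Delta-like gene of progenitors and preadipocytes, was far more abundant than any of the 10 genes in CPM. It rose from 1226.7 ± 26.8 to 2338.5 ± 149 CPM (1.91-fold). Dll4, the ligand of arterial endothelium, had 6 counts in all at passage 3 and 16 at passage 20 and was too low to be tested. Of 7 further genes of the Hes and Hey families or of Notch feedback, 4 were tested, and 3 rose, 0 fell and 1 was not called by edgeR. Whether each of them is a target of Notch in these cells was not tested. By DESeq2 and at an unadjusted p under 0.05, 0 fell as well. Hes7, among those that rose, had 29 counts in all at passage 3 and 78 at passage 20. It passed the low-count filter through passage 20. Hes3, not tested, had 16 counts in all at passage 3 and 3 at passage 20. Hes6 rose from 22.9 ± 1.88 to 40.6 ± 4.51 CPM (1.77-fold). Hey2, a ventricular relative of Hey1, stood at 6.80 ± 0.590 and 8.66 ± 0.912 CPM and was called at 1.27-fold (adjusted p = 0.0328 by edgeR), a call lost without passage 20 replicate 3, without passage 3 replicate 1 or 2, by DESeq2, with upper-quartile factors, with no filter and with library sizes only (log2 0.02). Nrarp, a feedback inhibitor and direct target of Notch, stood at 0.941 ± 0.0637 and 1.27 ± 0.423 CPM and was not called. Hes5 had 0 counts at passage 3 and 1 at passage 20.

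**Figure D4:**
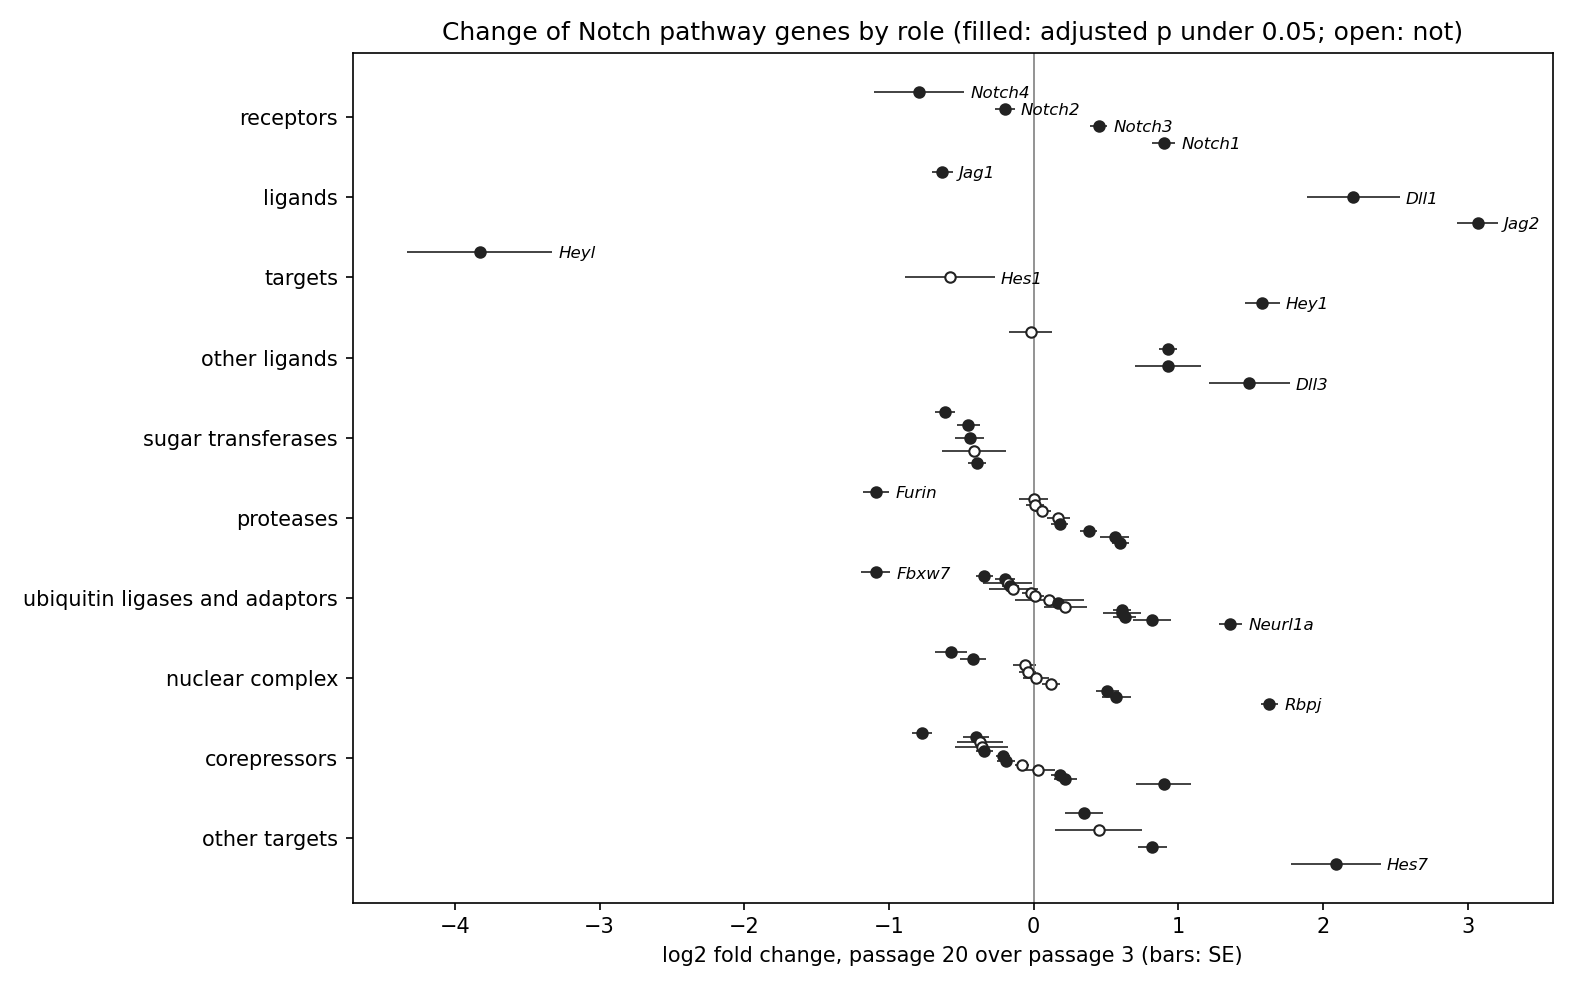
Log2 fold change (x axis, passage 20 over passage 3, with SE) of the 10 genes and of 59 other pathway genes in rows by role, with filled points called and open points not. Heyl and Jag2 lie at the 2 ends, at -3.83 and 3.07, and the sugar transferase genes lie to the left of 0.

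The label of cardiac progenitors was checked on 9 marker genes, all of which had counts at both passages. Mesp1 was near the lower limit of detection at passage 3, with 1, 2 and 5 counts, against 13, 23 and 38 at passage 20. It passed the low-count filter through passage 20, so a fall of Mesp1 could hardly have been called. At passage 20, 5 rose and 4 fell. Isl1 went from 63.2 ± 5.72 to 7.45 ± 0.534 CPM, Pdgfra from 328 ± 7.01 to 134 ± 0.744, and Kdr from 90.8 ± 6.80 to 74.6 ± 4.15. Gata4 went from 94.0 ± 1.05 to 160 ± 27.6 CPM, Nkx2-5 from 1.15 ± 0.211 to 5.24 ± 0.371, and Hand2 from 151 ± 4.34 to 179 ± 5.29, the last turning to a log2 change of -0.09 with library sizes only. Of 10 endothelial markers 5 were tested, with 2 higher, 2 lower and 1 not called. Their summed level was 23.9 to 27.4 CPM at passage 3 and 20.5 to 22.6 CPM at passage 20. Emcn was at 0 counts in all libraries, and Cdh5 had 9 counts in all at passage 3 and 7 at passage 20. Pecam1 and Egfl7, the most abundant called ones averaged over both passages, were 1.67-fold and 1.35-fold higher (log2 0.41 and 0.10 with library sizes only, neither called). The call of Egfl7 was also lost without passage 3 replicate 1 or 2 and by DESeq2. Vwf and Erg, an endothelial transcription factor, fell 4.83-fold and 4.37-fold. Of 10 mural and smooth muscle markers 6 rose, 3 fell and 1 was not called. Their summed level was 1107.6 to 1129.0 CPM at passage 3 and 1203.5 to 1256.4 at passage 20. Most of that sum was Acta2, the marker not called, at 796 ± 30.5 and 788 ± 15.1 CPM. These marker sums were taken with TMM scaling only, and small differences in them depend on it. Pdgfrb fell 1.60-fold and Cspg4 rose 2.22-fold. The part of these cell types in the levels of Notch3, Notch4, Heyl and Hey1 was not tested.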

How the data were processed

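RNA sequencing of ciCPCs gave 3 libraries at each passage. Per the submitters' processing notes, HISAT2 2.0.5, SAMtools, HTSeq and DESeq2 were used with GRCm38. What each tool did, the annotation release and the strand setting were not given in the sources used here. Deposited per-gene values were whole-number counts, which were tested here, and log2 values of a kind not stated, used as 1 alternative. Tables of the whole series were not used.

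Gene models came from GENCODE M21, which matched 53706 of 53801 identifiers (the others held 0.00623% of counts). Genes were filtered with filterByExpr, scaled with TMM and compared by robust quasi-likelihood fits in edgeR 4.0.16 (R 4.3.3), with Benjamini-Hochberg adjustment over 15143 genes. SEs are the size of the log2 change divided by the square root of F. The fit was run on simulated counts with 200 changed genes. In the data 74.3% of genes were called, so that run cannot test how the results depend on the scaling. Alternatives used DESeq2 1.42.0 and limma 3.58.1, among others. Named genes were all members, up to 2 per direction of each role with the largest called change at 5 CPM or more, 5 genes fixed by name (Rbpj, Dll4, Hey2, Hes5 and Nrarp), 2 per marker list and 5 progenitor markers (Isl1, Nkx2-5, Gata4, Pdgfra and Kdr). Lfng, Adam10, Mib1, Hes3, Hes7, Mesp1, Acta2, Myh11, Tagln, Kcnj8, Abcc9, Vwf, Erg, Emcn, Cdh5, Ptprc, Itgam, Myf5 and Msgn1 were named after their values were seen. Members and lists were chosen with earlier results of these data known. Counting intervals are exact and cover counting error only. Overlaps in annotated exons were checked: antisense genes overlapping members had at most 42 counts in all libraries together.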

Additional observations from a re-analysis of the deposited data

How the results depend on the processing

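The 10 genes kept their direction in all 160 pairings of gene and alternative (16 alternatives each). The threshold of 0.01 is among these and reuses the main fit, so there the direction could not differ. The 5 higher calls held when any 1 library was left out, while the lower calls ranged from 2 to 5 in those fits: 2 without passage 3 replicate 1 or 3 and without passage 20 replicate 1 or 2, and 5 without passage 20 replicate 3. At an adjusted p threshold of 0.01, 2 lower calls were left. With library sizes only, 3528 genes in all were higher and 8273 lower, and 14 other pathway genes rose and 35 fell. That scaling reversed Tle1 (log2 -0.11) and Hand2 (log2 -0.09). Without division by length, Notch3 held 57.4% of the receptors at passage 3 and 62.8% at passage 20, Jag1 59.3% of the ligands at passage 20, and Hes1 72.2% of the targets at passage 3. Per kilobase of the longest transcript these were 63.2% and 68.0% for Notch3, 94.0% at passage 3 and 56.2% at passage 20 for Jag1, and 82.0% at passage 3 for Hes1. At passage 20 Hes1 held 38.4% of the targets without division by length and 50.1% per kilobase of the longest transcript. The main value there was 49.4 ± 14.5%. The cause of the lost calls was not tested. limma on the deposited log2 values was chosen after seeing the data, and called 5 of the 10 genes higher and 4 lower.

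Libraries shared only a number across passages: their deviations from the group means had Pearson correlations across genes of 0.0143, -0.0273 and 0.0454 for numbers 1, 2 and 3, and not every library correlated best with its own number. With the replicate block, 5521 genes were higher and 5582 lower, 5 of the 10 genes were higher and 5 lower, with Hes1 called at -0.65 (adjusted p = 0.04 by edgeR), and 22 other pathway genes rose and 15 fell. Heyl, Dll1, Notch4 and Dll4 are limited by depth, at 4 to 98 counts per passage for the first 3 and under 20 for Dll4.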

Other observations

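Genes of the presomitic mesoderm, where Notch signalling drives the segmentation clock, were low at both passages. Hes7, a clock repressor, had 0.824, 0.370 and 0.505 CPM at passage 3 and 2.28, 2.98 and 2.06 CPM at passage 20, and was called 4.27-fold higher. Dll3, a Delta ligand of the same tissue, had 1.58, 1.11 and 1.31 CPM and then 3.56, 2.49 and 5.10 CPM, 2.82-fold higher. Of the 5 markers of this tissue, which include Dll3, 3 were tested and all 3 rose (largest adjusted p = 0.00107 by edgeR, for Msgn1). Msgn1 had 5, 9 and 9 counts at passage 3 and 11, 14 and 32 at passage 20. Msgn1 and Hes7 passed the low-count filter through passage 20, where they were higher. A fall could hardly have been called for such genes, so the shared direction is no support for a rise of the set. Tbx6 went from 1.45 ± 0.106 to 3.75 ± 0.782 CPM. The summed level of the 5 markers was 3.55 to 3.69 CPM at passage 3 and 8.05 to 13.3 CPM at passage 20.

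All 5 epithelial markers rose, where 37.0% of all genes were called higher. Their summed level was 90.1 to 94.3 CPM at passage 3 and 281 to 317 CPM at passage 20. Krt19 was 20.4-fold and Krt8 2.26-fold higher. Of 7 neural progenitor markers 3 were tested, and 2 rose (Nes 1.35-fold and Sox2 1.40-fold, neither called with library sizes only) and 1 fell. The call of Sox2 was also lost without passage 3 replicate 2 or 3 and by DESeq2. The neural sum was 98.9 to 115 CPM and then 129 to 169 CPM. Of 5 blood and immune markers 3 were tested, with Cd74 3.19-fold and Cd14 3.27-fold higher, 0 lower and 1 not called by edgeR (0 lower also by DESeq2 and at an unadjusted p under 0.05), and Ptprc and Itgam at 0 counts in all libraries. Of 5 skeletal muscle progenitor markers 2 were tested, with Pax3 called higher (1.93-fold, a call lost in separate fits by DESeq2, with library sizes only, without passage 3 replicate 2, without passage 3 replicate 3 and without passage 20 replicate 1) and Myf5 at 0 counts. Among mural markers, the pericyte channel genes Kcnj8 and Abcc9 were 16.8-fold and 6.98-fold higher. Kcnj8 went from 0.301 ± 0.0893 to 5.31 ± 1.18 CPM and Abcc9 from 1.34 ± 0.421 to 9.46 ± 0.325 CPM. Kcnj8, with 4, 4 and 8 counts at passage 3, passed the low-count filter through passage 20, so a fall could hardly have been called. Of the same 10 markers 6 rose and 3 fell. Those that fell were Myh11 (4.20-fold, from 4.84 ± 0.542 to 1.12 ± 0.626 CPM), Tagln (1.80-fold) and Pdgfrb (1.60-fold). Of the 1988 exon bases of Tagln, 1241 are shared with Gm48529 on the opposite strand. Gm48529 had 138 counts in all libraries together and Tagln 136. Whether counting used strand is not stated in the labels, so the level and fall of Tagln are uncertain. The part of these cell types in the levels of the Notch genes was not tested.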
